A study of Mus musculus with 24 samples.

Results

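The Toll-like receptors Tlr1, Tlr2, Tlr3, Tlr4, Tlr6, Tlr7 and Tlr9, their co-receptor Cd14 and their adaptor Myd88 were followed in splenic dendritic cells (DCs) of mouse pups. A probe set was taken as a member where the platform's annotation gave it 1 gene symbol and that symbol was one of these 9 genes. This gave 13 probe sets, of 22626 tested on the array, for 9 of 12393 genes. Tlr7 had 3 probe sets, Tlr3 and Tlr4 had 2 each, and the other genes had 1.

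The cells were CD11c+ DCs, collected on magnetic beads from the spleens of BALB/c pups on day 14 of life. Asthma-at-risk pups were born to mothers made asthmatic with ovalbumin (OVA) and alum followed by OVA aerosols, and normal pups were born to control mothers. Allergen-stimulated pups had been given a single intraperitoneal injection of 5 µg of OVA with 1 mg of alum, on day 3 by the sample labels and on day 4 by the study's methods, and naïve pups had not. By the methods, the pups whose DCs were profiled received the injection but no aerosol, so the stimulated groups model sensitization and not airway challenge. Set 1 held stimulated at-risk (n = 4), stimulated normal (n = 4), naïve at-risk (n = 4) and naïve normal (n = 3) arrays. Set 2, whose RNA was amplified with a NuGEN kit by the methods, held stimulated at-risk (n = 5) and stimulated normal (n = 4) arrays. The sample titles name no set. Arrays were assigned to the sets from the array numbers in the titles together with the methods. Levels are log2 of the deposited RMA intensity. By the methods the sets were normalized separately, with an alternative definition of the probe groups. The deposited values are for Affymetrix probe sets, and whether the sets were normalized separately there too was not checked. Levels are compared only within a set. The methods call the arrays of a group biological replicates, and the number of pups behind an array, and whether arrays came from separate litters, was not given in the sources used here. P-values measure the spread between these arrays.

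Toll-like receptors recognise conserved molecules of microbes. Tlr1, Tlr2, Tlr4 and Tlr6 sit at the cell surface, where Tlr2 pairs with Tlr1 or Tlr6 to bind lipopeptides and Tlr4 binds lipopolysaccharide handed over by Cd14. Tlr3, Tlr7 and Tlr9 sit in endosomes and bind double-stranded RNA, single-stranded RNA and unmethylated CpG DNA. Tlr3 signals through the adaptor Trif, Tlr4 through both Trif and Myd88, and the others through Myd88. In mouse spleen, Tlr3 is known to be abundant in CD8+ conventional DCs, and Tlr7 and Tlr9 in plasmacytoid DCs.

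Markers of conventional DCs were bright on all arrays. The 11 measured markers of conventional DCs averaged 12.44 to 12.79 over all 24 arrays, and none of them lay under the array's lower quartile in any group. This mean does not show single markers, 2 of which were called higher after allergen in normal pups. Lists of other cells were also well above the lower quartile. The 12 monocyte and macrophage markers averaged 11.5 to 12.27 and the 11 neutrophil markers 10.35 to 11.36 over the same arrays. The conventional DC list therefore does not show that the RNA was of DCs only. Markers of other cells moved with the groups, as the plot of marker lists shows. The 9 platelet markers averaged 8.99 to 10.01 on stimulated and 5.75 to 6.05 on naïve arrays of Set 1. In Set 2 they averaged 7.75 to 9.10 on at-risk and 6.32 to 6.54 on normal arrays. T cell, NK cell, plasmacytoid DC and monocyte and macrophage markers are given beside the results they moved with. A lower share of a cell type and less RNA per cell cannot be told apart in such bulk samples. The naïve normal array AF79 stood apart on several members, and the members' values in naïve pups and in the allergen comparison of normal pups are given with and without it.

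**Figure D1:**
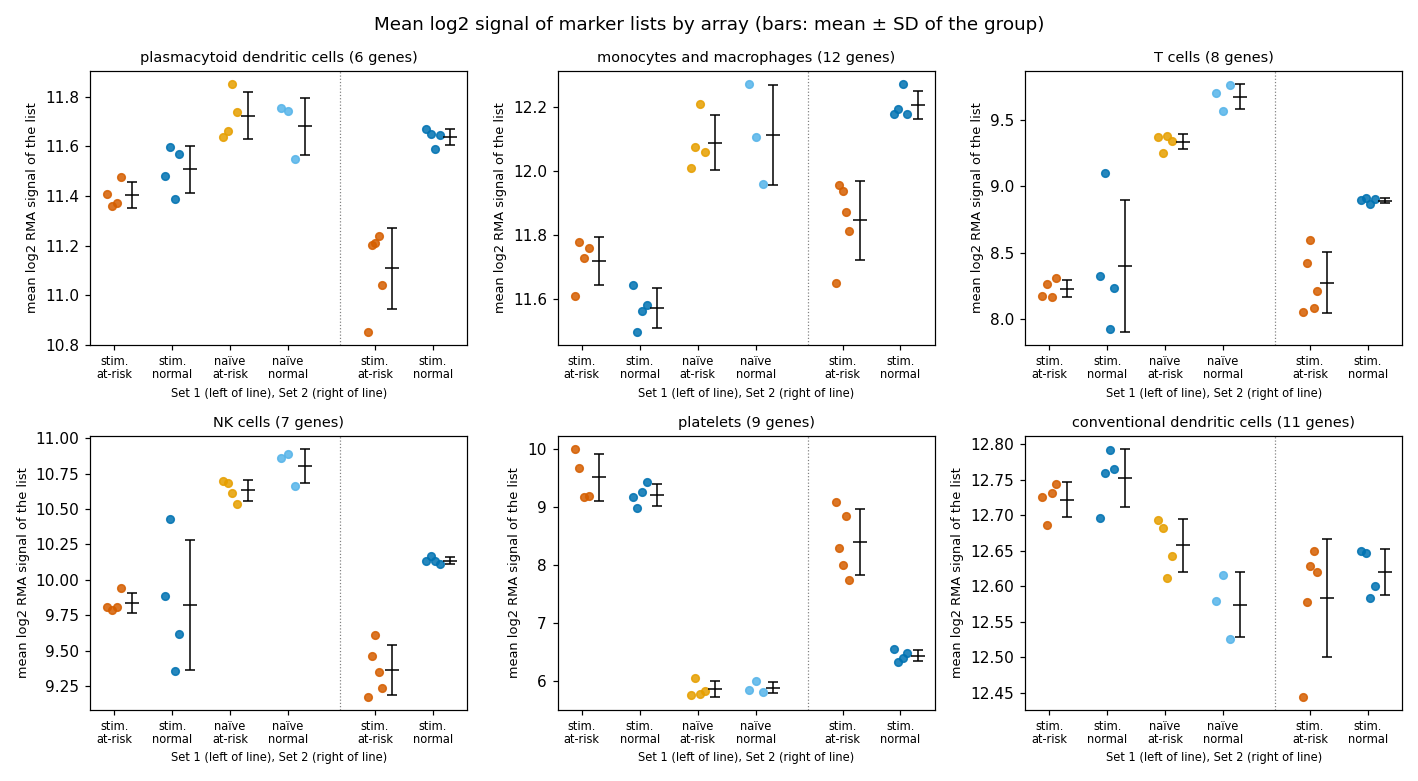
Mean log2 RMA signal (vertical axis) of 6 marker lists on each array, by group (horizontal axis), with Set 1 left and Set 2 right of the dotted line. Points are arrays and bars are the group mean ± SD. The 11 conventional DC markers stay within 12.44 to 12.79, while platelet markers are far higher on stimulated than on naïve arrays of Set 1.

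RefSeq's promoter table (GRCm38.p6) held 6 of the 9 genes. The 250 bases before each annotated start were searched on both strands for an NF-kB site, an interferon response element, an interferon-gamma activated site (TTCNNNGAA) and an AP-1 site (TGANTCA). NF-kB and interferon-activated factors are the main transcription factors downstream of these receptors. The stretches below are shown for Tlr3, the one receptor that was called higher after allergen, and for Tlr1 and Tlr6, neighbouring genes whose levels went together between arrays. Each is 30 bases, 5′ to 3′ on the gene's strand, and capitals mark the match. Of 2 annotated starts each for Tlr1 and Tlr6, the one with a match is shown. All of these windows lie inside the longest annotated gene model.

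Tlr3, 211 bases before the start, chr8:45410572-45410601 (minus strand): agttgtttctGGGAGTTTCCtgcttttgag
Tlr3, 23 bases before the start, chr8:45410384-45410413 (minus strand): ttccccacacGGCCGGTCCCtgttggcccc
Tlr1, 228 bases before the start, chr5:64932909-64932938 (minus strand): gagtagctagcTTCATCGAAgcagagatgc
Tlr6, 116 bases before the start, chr5:64959260-64959289 (minus strand): ctattctTTTCTCTTTCACTTTCtgtttga

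Both Tlr3 stretches hold a match to the NF-kB site, the second of them on the opposite strand. The Tlr1 stretch holds the interferon-gamma activated site. The Tlr6 stretch holds 2 overlapping matches to the interferon response element on the opposite strand, which start 116 and 110 bases before the gene's start. Among 32851 promoter windows of the same length, 17.6% held the NF-kB site, 7.0% the interferon-gamma activated site, 6.7% the AP-1 site and 3.0% the interferon response element. Matches were also found in members that were not called after allergen. Tlr2 held the NF-kB site 172 bases before its start, Tlr9 the AP-1 site at 58 bases, and Myd88 the interferon response element at 40 and the interferon-gamma activated site at 46 bases. A match is a description of the letters and was not tested as a site.

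Allergen stimulation was compared within Set 1, the only set with naïve arrays, to ask what the injection did to receptor RNA by maternal status. Tlr7 and Cd14 were lower in stimulated than in naïve DCs of both at-risk and normal pups, and Tlr3 was higher in stimulated normal DCs. Calls of differential expression (DE) were made with limma, and needed both an adjusted p, after Benjamini and Hochberg over all probe sets, of at most 0.05 and the minimal fold that the study used. In at-risk pups 4 of 13 member probe sets were called, all lower, against 3.46% lower and 7.88% in either direction over all probe sets. In normal pups 6 of 13 were called, 4 lower and 2 higher, against 11.5% in either direction over all probe sets, with 5.76% lower and 5.73% higher. These shares of members rest on few genes, since all 3 Tlr7 probe sets and, in normal pups, both Tlr3 probe sets were among them. The comparisons share no arrays, and the median over the 13 probe sets was -0.09 in at-risk and -0.13 in normal pups, against -0.015 and 0.0039 over all probe sets.

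The Tlr7 probe set of highest mean signal, 1422010_at, had levels of 9.75, 9.77, 9.99 and 10.03 on stimulated at-risk arrays, against 10.71, 10.71, 10.84 and 10.66 on naïve at-risk arrays. In normal pups it had 9.82, 10.01, 9.82 and 10.09 on stimulated arrays, against 10.65, 10.61 and 10.23 on naïve arrays. Stimulated and naïve arrays did not overlap in either comparison. Tlr7 was 1.80-fold lower in stimulated at-risk DCs (log2 fold change -0.85, SE 0.10, limma adjusted p = 5.322e-05) and 1.47-fold lower in stimulated normal DCs (-0.56, SE 0.11, adjusted p = 0.002765). The other probe sets of this endosomal RNA sensor, 1449640_at and 1419848_x_at, which derive from the same expressed sequence, also fell. Their log2 fold changes were -1.24 (SE 0.18) and -1.26 (SE 0.17) in at-risk pups and -1.46 (SE 0.20) and -1.52 (SE 0.19) in normal pups, all called.

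The naïve normal array AF79 had opposite extremes on the Tlr7 probe sets. It was the lowest naïve array on 1422010_at, with 10.23, and the highest on 1449640_at and 1419848_x_at, with 10.42 and 10.33, where the other naïve normal arrays had 9.54 to 9.78. Without it the Tlr7 log2 fold changes in normal pups were -0.69, -1.23 and -1.27, all still called.

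Cd14, which binds lipopolysaccharide for Tlr4 and Tlr2, had 9.63, 9.97, 9.97 and 9.92 on stimulated at-risk arrays, against 10.85, 10.70, 10.66 and 10.52 on naïve at-risk arrays. It had 10.10, 9.94, 9.99 and 9.98 on stimulated normal arrays, against 10.90, 10.94 and 10.55 on naïve normal arrays. Every stimulated array was below every naïve array. The fall was 1.76-fold in at-risk pups (log2 fold change -0.81, SE 0.10, limma adjusted p = 7.61e-05) and 1.74-fold in normal pups (-0.80, SE 0.11, adjusted p = 0.0001692). Without AF79 the value in normal pups was -0.92. The calls of Tlr7 and Cd14 held under every alternative setting and with every array of Set 1 left out in turn.

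Tlr3, the receptor for double-stranded RNA, moved the other way. Its probe set 1422782_s_at had 13.03, 13.03, 13.06 and 13.01 on stimulated normal arrays, against 12.58, 12.73 and 12.74 on naïve normal arrays. On at-risk arrays it had 12.90, 12.81, 12.89 and 12.96 with stimulation, against 12.69, 12.80, 12.63 and 12.77 without. All stimulated arrays were above their naïve counterparts. The rise in normal pups was called (log2 fold change 0.35, SE 0.06, limma adjusted p = 0.001544), though at 1.28-fold it lay just past the fold threshold, and was 0.38 without AF79. The at-risk value of 0.17 (SE 0.06) had an adjusted p of 0.09267.

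The second Tlr3 probe set, 1422781_at, had 11.19, 11.00, 11.12 and 11.06 on stimulated normal arrays, against 10.34, 10.36 and 10.39 on naïve normal arrays. On at-risk arrays it had 10.89, 10.52, 10.72 and 10.82 with stimulation, against 10.42, 10.51, 10.31 and 10.47 without. It rose 1.66-fold in normal pups (log2 fold change 0.73, SE 0.08, limma adjusted p = 3.663e-05), and without AF79 the value was 0.75. In at-risk pups its log2 fold change was 0.31 (SE 0.08, adjusted p = 0.01817), and its fold of 1.24 missed the threshold by a little. It passed without the naïve at-risk arrays AF81 (0.34) or AF83 (0.32) or the stimulated at-risk array AF89 (0.38). The difference between these allergen effects is the same contrast as the difference between the maternal effects, given further on.

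**Figure D2:**
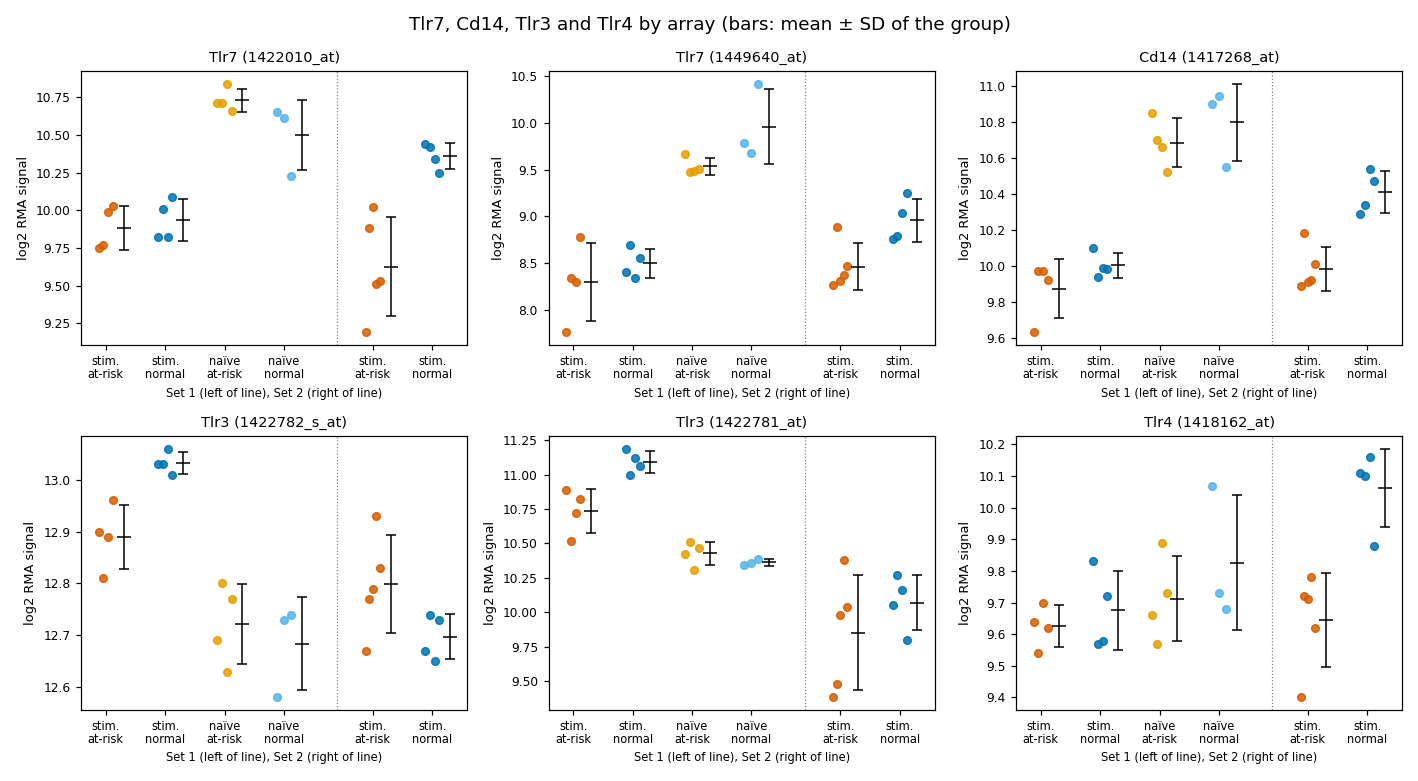
Log2 RMA signal (vertical axis) of 6 probe sets of Tlr7, Cd14, Tlr3 and Tlr4 on each array, by group (horizontal axis), with Set 1 left and Set 2 right of the dotted line. Points are arrays and bars are the group mean ± SD. Tlr7 and Cd14 sit lower on all stimulated arrays of Set 1 than on naïve ones, and Tlr3 sits higher.

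The members that signal at the cell surface, and Myd88 itself, were not called in either allergen comparison. Tlr4 had log2 fold changes of -0.09 (SE 0.09) in at-risk and -0.15 (SE 0.10) in normal pups on its brighter probe set, 1418162_at, and neither probe set was called. Tlr2 had 0.0018 (SE 0.07) and -0.17 (SE 0.08), and Tlr1 had 0.04 (SE 0.09) and -0.12 (SE 0.10), with at-risk pups first. Myd88, the adaptor shared by most of these receptors, had -0.07 (95% interval -0.24 to 0.10) in at-risk and 0.02 (-0.16 to 0.20) in normal pups. Group means of Myd88 in Set 1 spanned only 0.07 on the log2 scale, against 0.85 for Tlr7 and 0.93 for Cd14. Tlr9 was dim, at the 33.8th to 37.6th percentile of its array, and had -0.10 (SE 0.07) and -0.13 (SE 0.07). Tlr6 had 0.10 (SE 0.14) and -0.02 (SE 0.15), and without AF79 its value in normal pups turned to 0.22 (adjusted p = 0.1632). Without AF79 the values in normal pups were -0.11 for Tlr2, 0.017 for Tlr1, and -0.22 and -0.15 for the Tlr4 probe sets. Tlr9 had -0.18 and Myd88 -0.0039 without AF79, and none of these was called. Tlr1, Myd88 and the dimmer Tlr4 probe set, 1418163_at, which had 0.07 (SE 0.17) with AF79, changed sign too.

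**Figure D3:**
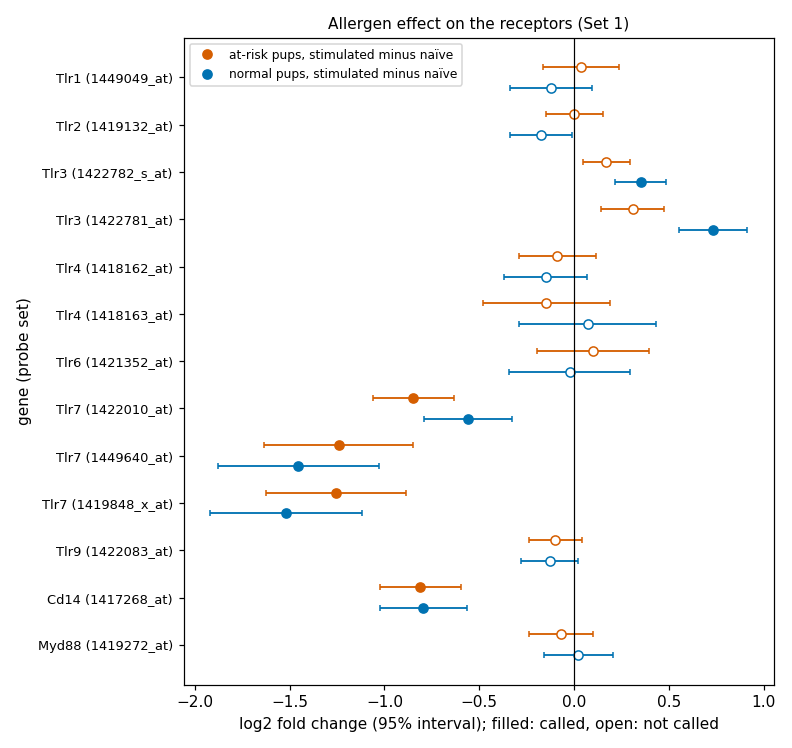
Log2 fold change of stimulated over naïve arrays with its 95% interval (horizontal axis) for the 13 member probe sets (vertical axis), in at-risk (orange) and normal pups (blue) of Set 1. Filled points were called. The Tlr7 and Cd14 probe sets are called lower in both comparisons and those of Tlr3 higher in normal pups.

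Arrays of the stimulated and naïve groups did not overlap for 6 of 13 member probe sets in at-risk pups and for 6 of 13 in normal pups, against 17.7% and 21.9% of all probe sets. In each case these were the Tlr7, Cd14 and Tlr3 probe sets. Markers of other cells were called in the same comparisons. Plasmacytoid DC markers were called lower for 3 of 6 in at-risk and 2 of 6 in normal pups, and averaged 11.36 to 11.48 on stimulated at-risk, 11.39 to 11.59 on stimulated normal, 11.64 to 11.85 on naïve at-risk and 11.55 to 11.75 on naïve normal arrays. Monocyte and macrophage markers were called lower for 4 and 7 of 12, T cell markers for 7 and 8 of 8, and NK cell markers for 5 and 5 of 7. Platelet markers were called higher for 9 and 8 of 9 and erythroid markers for 6 and 6 of 7, with at-risk pups first. Of 11 conventional DC markers, none was called in at-risk pups, and Zbtb46 and Xcr1 were called higher in normal pups. Of 9 endothelial markers, 5 were called higher and 1 (Cdh5) lower in at-risk pups, and 1 (Tek) higher and 1 (Cdh5) lower in normal pups. Of 11 neutrophil markers, Mpo and Elane were called higher and none lower in at-risk pups, and Mpo was called higher and 6 others lower in normal pups. Of 8 stroma markers, none was called in at-risk pups and 2 were called lower in normal pups. Their part in the Tlr7, Cd14 and Tlr3 values was not tested.

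Of 47 other genes listed for the pathway, 33 were measured. In at-risk pups 2 of 33 were called lower and none higher, and in normal pups 3 were called lower and 1 higher, beside 7.88% and 11.5% of all probe sets. The values in normal pups include AF79. Ikbke, a kinase that activates interferon regulatory factors, averaged 7.06 on stimulated and 8.05 on naïve at-risk arrays (log2 fold change -0.99, SE 0.09, limma adjusted p = 4.828e-06), and 7.17 on stimulated and 8.44 on naïve normal arrays (-1.27, SE 0.10, adjusted p = 1.11e-06). Tnfaip3, the ubiquitin-editing inhibitor of NF-kB also called A20, fell by 1.07 (SE 0.25, adjusted p = 0.0111) in at-risk and by 1.09 (SE 0.27, adjusted p = 0.01312) in normal pups on the log2 scale. In normal pups Lbp, the lipopolysaccharide binding protein, was lower (-0.92, SE 0.25, adjusted p = 0.02338) and Cd36, a scavenger receptor that works with Tlr2 and Tlr6, was higher (0.41, SE 0.11, adjusted p = 0.01778). None of the 4 measured transcription factors of the list was called.

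The maternal effect, at-risk against normal, was read in naïve pups, in stimulated pups of each set, and in all stimulated pups with set as a term. It was called for members only in Set 2, where Tlr7, Tlr4 and Cd14 were lower in at-risk DCs. There 3 of 13 member probe sets were called, all lower, against 2.04% lower and 4.62% in either direction over all probe sets. At-risk and normal arrays did not overlap for these 3 probe sets, against 10.1% of all probe sets.

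In Set 2, Tlr7 1422010_at had 9.19, 9.88, 10.02, 9.51 and 9.53 on stimulated at-risk arrays, against 10.44, 10.42, 10.34 and 10.25 on stimulated normal arrays. It was 1.66-fold lower in at-risk DCs (log2 fold change -0.74, SE 0.15, limma adjusted p = 0.02198). The at-risk arrays were spread more widely than the normal ones, and all lay below them. Probe sets 1449640_at and 1419848_x_at had -0.50 (SE 0.14, adjusted p = 0.08503) and -0.48 (SE 0.17, adjusted p = 0.1452), and were not called.

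Tlr4, the lipopolysaccharide receptor, had 9.40, 9.72, 9.71, 9.78 and 9.62 on at-risk arrays, against 10.11, 10.10, 10.16 and 9.88 on normal arrays of Set 2. It was 1.34-fold lower (log2 fold change -0.42, SE 0.09, limma adjusted p = 0.03037). Its dimmer probe set 1418163_at had -0.45 (SE 0.16, adjusted p = 0.153). Cd14 had 9.89, 10.18, 9.91, 9.92 and 10.01 on at-risk arrays, against 10.29, 10.34, 10.54 and 10.47 on normal arrays, and was 1.35-fold lower (-0.43, SE 0.08, adjusted p = 0.01603). For both genes the highest at-risk array lay below the lowest normal array.

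These calls depended on single arrays. Without the normal array AF120 none of the 3 was called (adjusted p = 0.06697 for Tlr7, 0.1034 for Tlr4 and 0.06418 for Cd14). Without the normal arrays AF118 or AF119, or the at-risk array AF127, only Cd14 was called, and without AF126 Tlr7 was not called (adjusted p = 0.05556). Without the at-risk array AF123, the lowest on Tlr7, Tlr4 and Cd14, all 3 were called, with log2 fold changes of -0.63, -0.36 and -0.41.

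Marker lists differed between the same groups. Plasmacytoid DC markers were called lower in at-risk DCs for 5 of 6, and averaged 10.85 to 11.24 on at-risk and 11.59 to 11.67 on normal arrays of Set 2. Monocyte and macrophage markers were called lower for 3 of 12 (11.65 to 11.96 on at-risk and 12.18 to 12.27 on normal arrays), T cell markers for 6 of 8 and NK cell markers for 6 of 7. Neutrophil markers were called lower for 2 of 11 (Csf3r and Cxcr2) and higher for none, and none of 11 conventional DC markers was called. Platelet markers were called higher for 8 of 9, stroma for 6 of 8, endothelium for 5 of 9, B cells for 4 of 7 and erythroid cells for 3 of 7. Their part in the Tlr7, Tlr4 and Cd14 values was not tested.

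In stimulated pups of Set 1 no member was called, against 0.0707% of all probe sets. An unadjusted limma p under 0.05 was found for 2 of 13, both of Tlr3. The share of all probe sets under this looser cut was not counted, so no conclusion is drawn from it. Tlr7 1422010_at averaged 9.88 on at-risk and 9.94 on normal arrays (log2 fold change -0.05, SE 0.10). Tlr4 had -0.05 (SE 0.09) and Cd14 -0.13 (SE 0.10). Tlr3 was the member with the smallest unadjusted p here. Its 2 probe sets had -0.35 (SE 0.08, limma adjusted p = 0.1402) and -0.15 (SE 0.06, adjusted p = 0.5573), and at-risk arrays lay below all normal arrays on both, against non-overlapping arrays for 6.23% of all probe sets. In Set 2 the same Tlr3 probe sets had -0.22 (SE 0.20) and 0.10 (SE 0.06), and their arrays overlapped. Neutrophil markers were called higher in at-risk DCs of Set 1 for 2 of 11, and their part in the Tlr3 values was not tested.

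The maternal effects of the sets were set against each other directly, as the interaction of set and maternal status over 17 stimulated arrays. An unadjusted limma p under 0.05 was found for 4 of 13, probe sets of Tlr7, Tlr3, Tlr4 and Cd14. The share of all probe sets under this looser cut was not counted, so no conclusion is drawn from it. No member was called, against 1.79% of all probe sets. Tlr7 1422010_at came nearest, with -0.68 (SE 0.19, limma adjusted p = 0.0813), followed by Tlr3 1422782_s_at with 0.25 (SE 0.08, adjusted p = 0.1323), Tlr4 with -0.37 (SE 0.12, adjusted p = 0.1434) and Cd14 with -0.30 (SE 0.12, adjusted p = 0.2292). A maternal effect particular to Set 2 was therefore not shown for these genes.

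Over all 17 stimulated arrays no member was called either, against 1.73% of all probe sets. An unadjusted limma p under 0.05 was found for 9 of 13, among them all 3 Tlr7 and both Tlr4 probe sets, so genes are counted more than once. The share of all probe sets under this looser cut was not counted, so no conclusion is drawn from it. The median log2 fold change of the 13 probe sets was -0.24, against -0.0079 over all probe sets, and 10 of 13 were negative. This median counts genes more than once, since all 3 Tlr7 probe sets and both probe sets each of Tlr3 and Tlr4 were among the negative ones. It is therefore not a value of the genes as a set. Tlr2 had -0.012 (SE 0.06) and the brighter Tlr3 probe set, 1422782_s_at, had -0.0155 (SE 0.05). Cd14 passed the adjusted p but not the fold, with -0.29 (SE 0.07, limma adjusted p = 0.03399). Tlr7 1422010_at had -0.41 (SE 0.12, adjusted p = 0.08684) and Tlr4 1418162_at -0.24 (SE 0.07, adjusted p = 0.08894). Tlr1 and Tlr6 were on the other side of 0, with 0.16 (SE 0.06, adjusted p = 0.1494) and 0.14 (SE 0.07, adjusted p = 0.2941). Myd88 had -0.02 (95% interval -0.14 to 0.09). Of the 33 pathway genes, only Lbp was called, higher in at-risk DCs (0.77, SE 0.18, adjusted p = 0.03386). Set 1 alone gave 0.91 and Set 2 alone 0.65, and neither value was called.

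**Figure D4:**
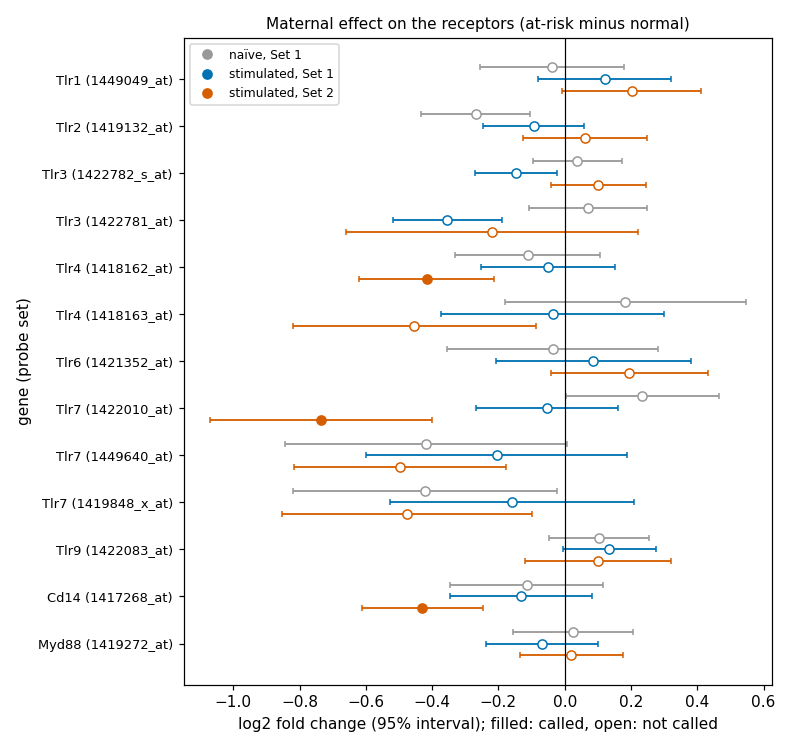
Log2 fold change of at-risk over normal arrays with its 95% interval (horizontal axis) for the 13 member probe sets (vertical axis), in naïve pups (grey), stimulated pups of Set 1 (blue) and stimulated pups of Set 2 (orange). Filled points were called. Tlr7 1422010_at, Tlr4 1418162_at and Cd14 are called, and only in Set 2.

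In naïve pups no member was called, against 0.34% of all probe sets. An unadjusted limma p under 0.05 was found for 3 of 13, that of Tlr2 and the Tlr7 probe sets 1422010_at and 1419848_x_at. The share of all probe sets under this looser cut was not counted, so no conclusion is drawn from it. Tlr2 had the smallest unadjusted p. It had 10.30, 10.36, 10.17 and 10.32 on naïve at-risk arrays, against 10.47, 10.50 and 10.69 on naïve normal arrays, which do not overlap. Its log2 fold change was -0.27 (SE 0.08, limma adjusted p = 0.1489), and -0.20 without AF79. Tlr7 had +0.23 (SE 0.11, adjusted p = 0.3102) on 1422010_at but -0.42 on both other probe sets (SE 0.20 and 0.19), so its probe sets disagreed in direction, and without AF79 these values were 0.10, -0.19 and -0.17. Without AF79 the other members lay between -0.24 (Cd14) and 0.21 (Tlr6), and none was called. At-risk and normal arrays did not overlap for 4 of 13 member probe sets, against 11.1% of all probe sets. These were Tlr2 and the 3 Tlr7 probe sets.

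Whether the maternal effect differed between stimulated and naïve pups of Set 1 was tested as an interaction. No member was called, against 0.0486% of all probe sets. An unadjusted limma p under 0.05 was found for 2 of 13, both of Tlr3. The share of all probe sets under this looser cut was not counted, so no conclusion is drawn from it. Tlr3 1422781_at had -0.42 (SE 0.11, limma adjusted p = 0.2494), the value by which its allergen rise was smaller in at-risk than in normal pups. Tlr7 1422010_at had -0.29 (SE 0.15), but 1449640_at had 0.21 (SE 0.27) and 1419848_x_at 0.26 (SE 0.25), so the Tlr7 probe sets disagreed in direction. Cd14 had -0.02 (95% interval -0.33 to 0.30).

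Tlr1 and Tlr6, the alternative partners of Tlr2, rose and fell together from array to array. Their genes lie side by side on chromosome 5 and encode closely related receptors, so probes may share sequence. On the 9 arrays of Set 2, Tlr1 had 11.96, 11.99, 11.66, 11.89 and 11.94 on at-risk arrays, against 11.50, 11.62, 11.74 and 11.87 on normal arrays, and Tlr6 had 9.68, 9.58, 9.40, 9.53 and 9.73, against 9.13, 9.33, 9.49 and 9.61. At-risk and normal arrays overlapped for both. The array AF79 was the highest naïve array of Set 1 on both, with 11.67 for Tlr1 and 9.71 for Tlr6. Pearson's r was 0.92 over the 7 naïve arrays (Spearman's rho 0.71), 0.87 over the 8 stimulated arrays of Set 1 (rho 0.57) and 0.93 over the 9 of Set 2 (rho 0.85), and 0.57, 0.48 and 0.82 without the 2 arrays farthest from the median. This pair, of 36 pairs of members, was picked after its values were seen, and the arrays share their normalization and condition groups.

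**Figure D5:**
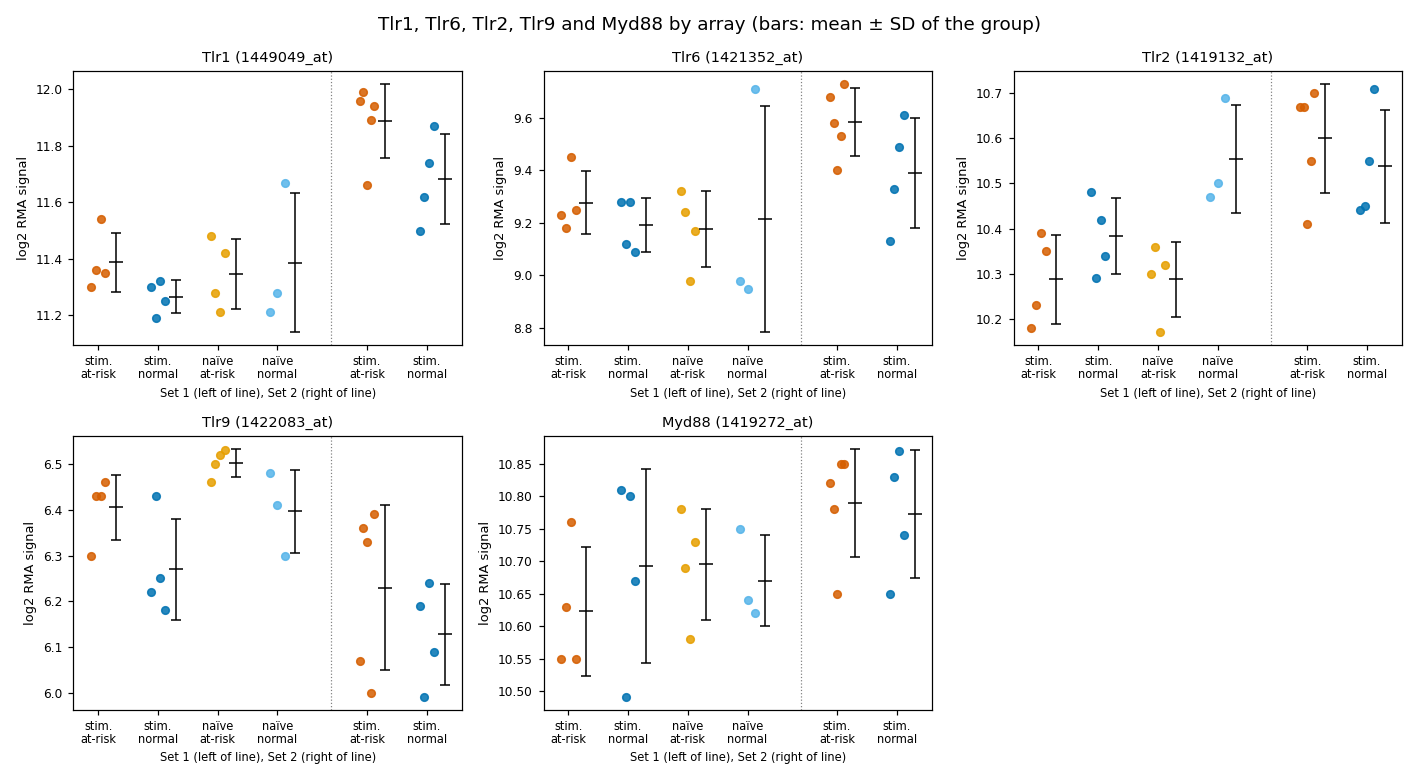
Log2 RMA signal (vertical axis) of Tlr1, Tlr6, Tlr2, Tlr9 and Myd88 on each array, by group (horizontal axis), with Set 1 left and Set 2 right of the dotted line. Points are arrays and bars are the group mean ± SD. Groups overlap for Myd88, and 1 naïve normal array lies high on Tlr1 and Tlr6.

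The genes whose levels over the 15 arrays of Set 1 were most like those of a member were ranked by Pearson's r. The naïve and stimulated arrays of Set 1 form separate clusters, so r is given within each. For Cd14 the closest gene was Socs3, an inhibitor of cytokine signaling, with r = 0.92 over 7 naïve arrays, 0.90 over 8 stimulated arrays of Set 1 and 0.95 over 9 arrays of Set 2 (Spearman's rho 1, 0.88 and 0.93). Nr4a1 and Jun, immediate early transcription factors, followed. Nr4a1 had 0.95, 0.77 and 0.95 in the same order (rho 0.89, 0.45 and 0.92), and Jun had 0.73, 0.94 and 0.97 (rho 0.75, 0.69 and 0.93). Over the stimulated arrays of Set 1, these values were 0.083 for Nr4a1 and 0.37 for Jun without the 2 arrays farthest from the median. For Tlr3 the closest was Naalad2, with 0.82, 0.85 and 0.60 in the same order (rho 0.79, 0.86 and 0.58). Ppp2r3c followed with 0.50, 0.93 and 0.61 (rho 0.43, 0.81 and 0.62), and Adcy4 with 0.63, 0.84 and 0.55 (rho 0.54, 0.81 and 0.55). For Tlr7 it was Ctsb, a lysosomal protease, with 0.82, 0.71 and 0.60 (rho 0.39, 0.74 and 0.52), though over the naïve arrays the value was -0.54 without the 2 arrays farthest from the median. Il2rb followed with 0.83, 0.38 and 0.97 (rho 0.36, 0.095 and 0.97), and Mid1 with 0.91, 0.20 and 0.79 (rho 0.61, 0.095 and 0.80). Over the naïve arrays these values were -0.12 for Il2rb and -0.047 for Mid1 without the 2 arrays farthest from the median.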

How the data were processed

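RNA of splenic CD11c+ DCs was measured on 24 Affymetrix mouse arrays. Per the labels, the authors ran RMA (version not given in the sources used here). What they deposited was 1 linear-scale intensity for each probe set and array. By the methods, the sets were preprocessed separately and 1 array per set was excluded. Here log2 was taken, with no pseudocount, and 64 control probe sets were left out. Symbols came from the platform annotation (20380 of 22626 probe sets had 1 symbol, 691 several and 1555 none). Linear models (limma 3.58.1, with lmFit and eBayes, under R 4.3.3) were fitted to 15 arrays of Set 1 with 1 mean per group, to 9 arrays of Set 2, and to 17 stimulated arrays with set as a term or interacting with maternal status. A call needed an adjusted p (Benjamini and Hochberg) of at most 0.05 and a fold of at least 1.25. All 9 members were named with every probe set, and pathway genes with values where called. For the 3 members whose Set 1 group means ranged widest, the 3 genes of highest Pearson's r were taken as most like them. The fits were tested on simulated data. Figures were drawn with Python 3.11.15, pandas 2.3.3 and matplotlib 3.10.9. The alternatives were other arrays in the fit, no set term or set as a random block, quantile normalization, median centring, a filter under the 40th percentile, no fold threshold, array weights, trend and robust, each array left out and 1 probe set per gene. The number of arrays limits the precision. Members and lists were chosen with earlier results of these data known.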

Additional observations from a re-analysis of the deposited data

Results flagged for a closer look

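Among 65 groups of members' levels tested with Dixon's ratio, 2 held an array far from the others, and chance alone flags about 1 in 20. The naïve normal group (n = 3), which holds AF79, was too small for this test and is not among the 65. Tlr7 1449640_at was 9.67 on the naïve at-risk array AF80, against 9.48 to 9.51 on the other 3 arrays of the group. Cd14 was 9.63 on the stimulated at-risk array AF88, against 9.92 to 9.97 on the other 3.

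The maternal effect on Tlr7 1422010_at ran in opposite directions in stimulated pups of Set 2 and in naïve pups. All at-risk arrays lay below all normal arrays in Set 2 and above them in the naïve groups, and the effects differed by -0.97 on the log2 scale. The difference spans the sets and was not tested, and the other Tlr7 probe sets had -0.50 and -0.48 in Set 2 and -0.42 each in naïve pups.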

How the results depend on the processing

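No paired analysis was made, because the sources used here give no litter or other pairing of the arrays. Of 2391 values of member probe sets under alternatives, 12 lost a call, 14 gained one, 1 turned and 2364 did none of these. Counts of calls are not among these values. A turn was read only where a 95% interval excluded 0, and 59 values changed sign in all. The naïve comparison and the difference between stimulated and naïve pups gave 0 calls throughout. The allergen value of Tlr6 in normal pups, -0.02, lay between -0.15 and 0.22 with an array left out, and turned to 0.22 without AF79. In all stimulated pups the count of 0 became 1 with all 24 arrays (Tlr7), 1 with array weights (Tlr7) and 1 with no fold threshold (Cd14), and was 0 to 1 with an array left out (1 without AF91, Tlr7 1449640_at). In Set 1 it became 1 with array weights (Tlr3, adjusted p = 0.04972). In Set 2 the count of 3 was 0 to 4 with an array left out, and 4 with array weights. The allergen counts of 4 and 6 became 2 and 3 with 1 probe set per gene, where fewer probe sets were counted. Tlr3 1422782_s_at lost its call in normal pups with median centring (0.32) and without AF76 (0.30), both under the fold threshold. Tlr3 1422781_at gained a call in at-risk pups with no fold threshold (0.31) and without AF81 (0.34), AF83 (0.32) or AF89 (0.38). The difference between sets had 2 calls with array weights (Tlr7 and Tlr4) and 0 to 1 with an array left out (1 without AF125, Tlr7). Where no construction is named, the cause was not tested. RMA values carry no detection call, so only dimness could be read as a limit. Among members it applies to Tlr9 and to Tlr4 1418163_at, which lay at the 35.5th to 44.9th percentile of its array.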

Other observations

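Tlr5, the flagellin receptor, and Tlr8 were also measured and not called in any comparison. Tlr8 averaged 5.52 on at-risk and 6.24 on normal arrays of Set 2 (log2 fold change -0.72, SE 0.23, limma adjusted p = 0.1172). In naïve pups it went the other way, with 5.91 on at-risk and 5.29 on normal arrays (0.61, SE 0.25, limma adjusted p = 0.2695). These levels were dim, since the lower quartile of the arrays of Set 1 lay at 4.997 to 5.093.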
